A study of Caenorhabditis elegans with 4 samples.

Results

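Non-muscle myosin II, the anillin scaffold, a formin and regulators that turn them on were followed here in 9 genes, *nmy-1*, *nmy-2*, *mlc-4*, *mlc-5*, *ani-1*, *ani-2*, *cyk-1*, *cyk-4* and *ect-2*. They belong to a set of 10 genes chosen by name as the contractile machinery of the germline rachis and of cytokinesis, and all 10 were found among the 20181 gene rows of the count table. RNA had been sequenced from 2 samples of gonads dissected from N2, the wild-type laboratory strain of *Caenorhabditis elegans*, and from 2 samples of whole *glp-4(bn2)* mutants. All worms were young adults grown on OP50 bacteria, and each sample pooled many worms or gonads. The *bn2* allele is temperature-sensitive and is used to obtain worms with very few germ cells, but the labels give no growth temperature. A *glp-4* worm keeps its somatic gonad, and a dissected gonad brings somatic sheath cells along. The groups differ in tissue and in genotype at once, and these cannot be told apart.

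In an adult worm gonad the germ cells are not closed off from each other. Each opens through a ring of actomyosin cortex into a shared core of cytoplasm, the rachis, and the tension of that cortex keeps the openings in shape. The same parts close the cleavage furrow when a cell divides. A guanine nucleotide exchange factor (GEF) starts the signal that turns on a formin, which builds actin filaments, and a kinase that activates myosin II, while anillin ties the filaments, the myosin and the membrane together.

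Library totals lay between 19538620 and 25624824 counts, and levels are given as CPM, counts per 1e+06 counts of a library after TMM scaling. Germ cell markers were present in gonads, where 8 of 8 listed genes were higher and their summed level was 15500 and 16000 CPM, against 153.3 and 156.0 CPM in *glp-4* worms. The worm level of that list was thus 0.982% of the gonad level, and single markers ranged from 0.569% (*puf-5*) to 5.0% (*glh-1*). Intestine, body wall muscle and epidermis lists stood in gonads at 0.416%, 1.65% and 0.607% of their worm level, the 7 neuron markers at 14.0%, and the 8 genes of sheath, spermatheca and distal tip at 19.8%. The last values rest largely on 1 gene each and are 7.90% without *snb-1* and 6.58% without *inx-8*, which was itself higher in gonads, while 5 of the 8 were higher in worms. Sperm markers summed to at most 4.12 CPM in any library. In such bulk samples fewer cells of a type and less RNA per cell cannot be told apart. Separate cultures are not stated for the duplicates; the p-values rest on the spread between the libraries at hand, and that spread may be only technical.

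The 9 genes did not move as a block. Of them, 6 were higher in gonads (*nmy-2*, *ani-1*, *ani-2*, *cyk-1*, *cyk-4* and *ect-2*), 2 were higher in *glp-4* worms (*nmy-1* and *mlc-4*), and *mlc-5* did not pass the test (edgeR's quasi-likelihood test, Benjamini-Hochberg adjusted p under 0.05). Across all 13101 genes tested 93.0% differed, 36.4% being higher in gonads and 56.6% higher in *glp-4* worms. With a difference of at least 2-fold required as well, 5 of the 9 were higher in gonads, where 30.9% of all genes were, and *nmy-1* alone was higher in worms, where 53.1% of all genes were. The median log2 fold change (gonad minus worm) was 2.41 over the 9 genes and -1.50 over all genes tested. The libraries of the groups did not overlap for 8 of the 9 genes, as for 96.4% of all genes.

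**Figure D1:**
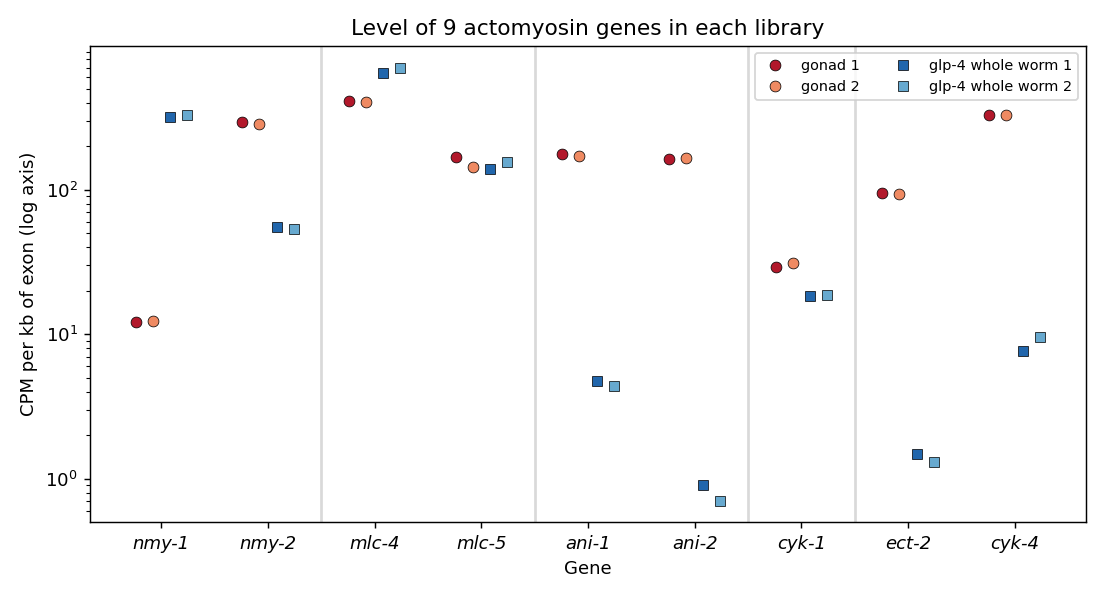
Level of each of the 9 genes in each of the 4 libraries, as CPM per kb of exon on a log axis; circles are gonads and squares are *glp-4* whole worms. The heavy chain genes *nmy-1* and *nmy-2* lie in opposite order in the groups, *ani-1*, *ani-2*, *ect-2* and *cyk-4* are far lower in worms, and *mlc-5* overlaps.

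The myosin heavy chain is the motor of the ring, and worms have a pair of non-muscle genes for it. *nmy-2* (WBGene00003777, WBcel235 chromosome I, 7926623 to 7934577, minus strand) encodes the motor of germline and embryonic cortex and of the cytokinetic ring. It had 1903 and 1852 CPM in gonads against 360.4 and 347.6 CPM in *glp-4* worms. Both gonad values were well above both worm values, a 5.30-fold difference (log2 2.41 ± 0.16, SE; edgeR adjusted p = 7.75e-12). *nmy-1* (WBGene00003776, chromosome X, 2909527 to 2918044, plus strand) encodes the second heavy chain, known for its part in embryonic elongation and in contraction of the spermatheca. It had 77.72 and 79.12 CPM in gonads against 2043 and 2126 CPM in worms. The order was thus the reverse of that of *nmy-2*, with a log2 fold change of -4.73 ± 0.17 (SE; edgeR adjusted p = 6.99e-16), or 26.6-fold.

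Both heavy chain transcripts have nearly the same exon length (6420 bp for *nmy-1*, 6494 bp for *nmy-2*) and encode products of 1963 and 2003 residues by the annotated coding sequences, so their levels could be set side by side per kb of exon. Summed, they came to 305 and 298 CPM per kb in gonads and 374 and 385 CPM per kb in worms. The pool differed by 1.26-fold between the groups under TMM scaling, whereas its makeup differed widely. With other scalings the summed level ran from 266 to 310 CPM per kb in gonads and from 369 to 430 in worms. *nmy-2* made up 96.0% and 95.9% of the pool in gonads and 14.9% and 13.9% in worms. The ratio of *nmy-2* to *nmy-1* was 24.2 and 23.1 in gonads and 0.174 and 0.162 in worms. These shares do not depend on how libraries are scaled; they carry no test of their own, since an exact two-sided permutation test of 2 against 2 libraries cannot go below p = 0.333.

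Neither heavy chain gene was absent from the group where it was low. The *glp-4* worms kept 18.9% of the gonad level of *nmy-2*, against 0.569% to 5.0% of single germ cell markers. Gonads kept 3.76% of the worm level of *nmy-1*. Single body wall muscle markers were kept at 0% to 4.06% and neuron markers at 0.558% to 61.1%. Those of sheath, spermatheca and distal tip were kept at 0% to 255%. *nmy-1* lay inside each of these ranges. Single intestine markers were kept at 0.134% to 1.52% and epidermis markers at 0% to 2.45%, and *nmy-1* lay above both of those ranges. Since the ranges that hold *nmy-1* belong to several tissues, they do not single out a cell type. Which cells carry the *nmy-1* reads of the gonad libraries was not tested.

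**Figure D2:**
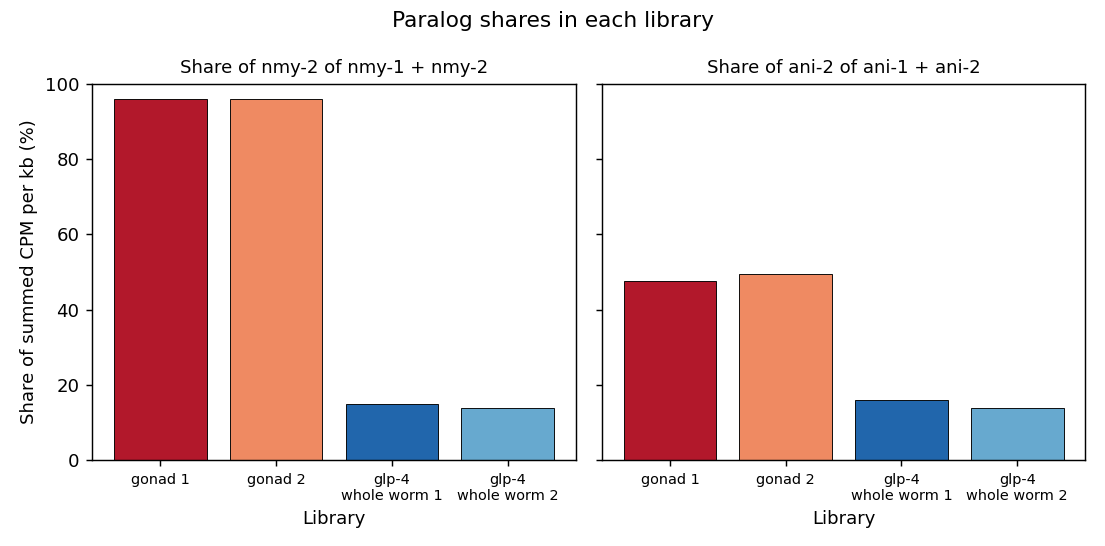
Share of *nmy-2* in the summed level of *nmy-1* and *nmy-2* (left) and of *ani-2* in that of *ani-1* and *ani-2* (right), in percent of CPM per kb of exon, 1 bar per library. *nmy-2* is 96.0% and 95.9% in gonads and 14.9% and 13.9% in worms; *ani-2* is 47.7% and 49.5% in gonads and 16.0% and 13.8% in worms.

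Light chains bind the neck of the heavy chain. *mlc-4* (WBGene00003372, chromosome III, 3392514 to 3393787, minus strand) encodes the regulatory light chain, whose phosphorylation switches the motor on. It had 289.9 and 283.3 CPM in gonads against 452.7 and 491.0 CPM in worms. It was higher in both worm libraries, but by less than 2-fold (log2 -0.72 ± 0.14, SE; edgeR adjusted p = 5.41e-05). *mlc-5* (WBGene00011734, chromosome III, 13623314 to 13624170, plus strand), the essential light chain gene, had 108.2 and 91.89 CPM in gonads against 89.43 and 99.67 CPM in worms. The groups overlapped and the ratio of gonad to worm was 1.06, with a 95% interval from 0.873 to 1.28 (edgeR adjusted p = 0.561). A difference of 2-fold lies outside this interval, under the scaling used.

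Per kb of exon *mlc-4* was the highest of the 9 genes in both groups, at a mean of 408 CPM per kb in gonads and 672 CPM per kb in worms. Set against both heavy chains together, it stood at a ratio of 1.35 and 1.36 in gonads and 1.73 and 1.82 in worms. The ratio of *mlc-5* to *mlc-4* was 0.407 and 0.354 in gonads and 0.215 and 0.221 in worms. The light chain genes thus differed between groups far less than either heavy chain gene.

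Anillins scaffold the ring. *ani-1* (WBGene00013038, chromosome III, 12446348 to 12453375, minus strand) encodes the anillin of the cytokinetic ring, and *ani-2* (WBGene00019608, chromosome II, 6361159 to 6365367, minus strand) a shorter anillin that sits at the rachis openings and is needed to keep the syncytium. Their longest annotated products have 1159 and 1009 residues. *ani-2* had 576.1 and 593.7 CPM in gonads against 3.24 and 2.514 CPM in worms. This was the steepest difference of the 9 genes, 204-fold (log2 7.67 ± 0.20, SE; edgeR adjusted p = 6.53e-18), and rested on 70 and 65 counts in the worm libraries. *ani-1* had 700.9 and 671.8 CPM in gonads against 18.84 and 17.44 CPM in worms, a 37.8-fold difference (log2 5.24 ± 0.16, SE; edgeR adjusted p = 6.85e-17).

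In gonads the anillin genes were near each other per kb of exon, *ani-1* at 177.4 and 170.1 and *ani-2* at 162.1 and 167.0 CPM per kb. In worms *ani-1* was at 4.769 and 4.416 and *ani-2* at 0.911 and 0.707 CPM per kb. *ani-2* made up 47.7% and 49.5% of their sum in gonads and 16.0% and 13.8% in worms. Worms kept 0.492% of the gonad level of *ani-2* and 2.64% of that of *ani-1*, the first under and the second inside the range of single germ cell markers (0.569% to 5.0%).

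*cyk-1* (WBGene00000872, chromosome III, 7023642 to 7029205, minus strand) encodes the diaphanous-type formin that elongates actin filaments for the ring. It had 132.5 and 140.4 CPM in gonads against 83.18 and 83.93 CPM in worms. Both gonad libraries were higher, by 1.63-fold (log2 0.71 ± 0.12, SE; edgeR adjusted p = 2.27e-05), under the 2-fold minimum. Per kb of exon it was among the lower genes of the set in gonads, at a mean of 30.2 CPM per kb, and in the middle of the set in worms, at 18.5 CPM per kb.

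The regulators that start contraction differed far more than the formin. *ect-2* (WBGene00002297, chromosome II, 10778387 to 10783962, minus strand) encodes the GEF needed for cytokinesis and cortical contraction. It had 324.3 and 320.5 CPM in gonads against 5.045 and 4.486 CPM in worms. The difference was 67.7-fold (log2 6.08 ± 0.17, SE; edgeR adjusted p = 1.17e-17), with the gonad libraries within a few CPM of each other. *cyk-4* (WBGene00000875, chromosome III, 13768648 to 13771224, minus strand) encodes the GTPase-activating protein (GAP) subunit of centralspindlin, which acts with ECT-2 at the spindle midzone and is also found at the rachis. It had 728.3 and 720.2 CPM in gonads against 16.99 and 21.16 CPM in worms, a 37.9-fold difference (log2 5.24 ± 0.17, SE; edgeR adjusted p = 1.45e-16). Worms kept 1.48% of the gonad level of *ect-2* and 2.63% of that of *cyk-4*.

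Per kb of exon *ect-2* stood at 0.287 of *cyk-4* in both gonad libraries and at 0.192 and 0.137 in worms.

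**Figure D3:**
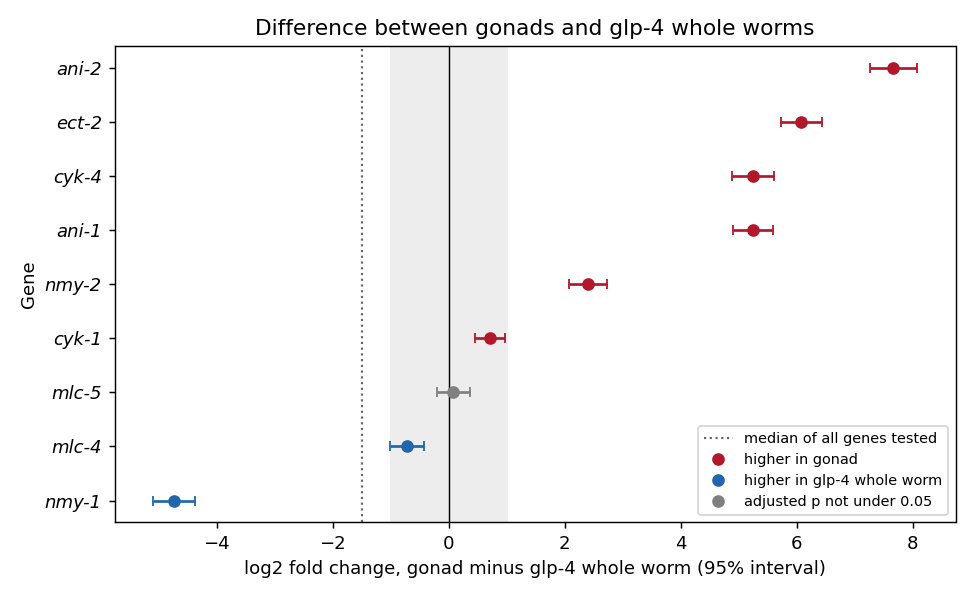
Log2 fold change of each of the 9 genes, gonad minus *glp-4* whole worm, with its 95% interval from the edgeR fit; the grey band marks differences under 2-fold and the dotted line the median of all genes tested (-1.50). Values run from -4.73 for *nmy-1* to 7.67 for *ani-2*, and 3 genes lie in or across the band: *mlc-4*, *mlc-5* and *cyk-1*.

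The order of levels per kb of exon differed between the groups. In gonads *mlc-4* was followed by *cyk-4* (329 CPM per kb), *nmy-2* (289), *ani-1* (174), *ani-2* (165), *mlc-5* (155), *ect-2* (94.5), *cyk-1* (30.2) and *nmy-1* (12.2), and of these neighbours only *ani-2* and *mlc-5* overlapped between libraries. In worms *mlc-4* was followed by *nmy-1* (325 CPM per kb), *mlc-5* (147), *nmy-2* (54.5), *cyk-1* (18.5), *cyk-4* (8.67), *ani-1* (4.59), *ect-2* (1.40) and *ani-2* (0.809), with no overlap between neighbours. Ranked among 12744 tested genes with an annotated length, *nmy-2* was at percentile 97.3 in gonads and 87.1 in worms, *nmy-1* at 63.2 and 97.4, *cyk-4* at 97.7 and 51.8, and *ani-2* at 94.0 and 12.2. *mlc-5* stayed at 93.5 and 94.6.

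Among the members' annotated exons, overlap with other genes was small. It lay on the opposite strand and reached 2.23% of exon length for *cyk-4*, 1.71% for *mlc-4* and 0.24% for *cyk-1*, and 0% for the other 6. The labels do not say that strand was kept, so reads in those stretches cannot be assigned.

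Other genes of the pathway were taken from 7 lists with 47 gene names, of which 46 were found and tested. Of these, 23 were higher in gonads and 22 higher in worms, beside 36.4% and 56.6% of all genes. The same shares stand beside the count of each list below.

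GEFs, GAPs and other activators divided by gene. Of 7, 3 were higher in gonads and 4 in worms, near the split of all genes tested (36.4% and 56.6%). The GAP gene *rga-3*, which limits contraction of the embryo's cortex, had 313.8 and 255.2 CPM in gonads against 2.222 and 1.856 CPM in worms, the largest difference of the list (log2 7.13 ± 0.19, SE). Its paralog *rga-4* and the contractility activator gene *nop-1* were the other two, at log2 2.70 and 5.55. *rga-3* and *rga-4* are similar in sequence, so the split of reads between them is uncertain. On the side of the worms were *spv-1*, a GAP gene known from the spermatheca (2.515 and 2.099 CPM in gonads, 63.79 and 65.32 CPM in worms, log2 -4.81 ± 0.19), the GEF genes *rhgf-1* and *rhgf-2* (-4.04 and -1.10) and *rhi-1*, a GDP dissociation inhibitor gene (-1.72).

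The 3 listed genes that act on the phosphorylation of the light chain were all higher in gonads. The kinase gene *let-502* had 456.2 and 511.0 CPM in gonads against 105.8 and 128.1 CPM in worms (log2 2.05 ± 0.15, SE). The kinase gene *mrck-1* differed by 1.75 ± 0.14, and *mel-11*, the myosin phosphatase targeting subunit gene, by 0.85 ± 0.14, under 2-fold. They thus lay nearer to *nmy-2* than to *ani-2* or *ect-2* in the size of the difference. Their sign was opposite to that of their substrate gene *mlc-4* (-0.72), with 0 set by the scaling of the libraries. Against the median of all genes tested (-1.5), *mlc-4* and these 3 genes lay on the same side.

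Central spindle genes were all higher in gonads, 6 of 6, with a median log2 fold change of 5.45. The Aurora B kinase gene *air-2* led with 520.7 and 575.1 CPM in gonads against 7.638 and 4.448 CPM in worms (6.51 ± 0.22, SE). The survivin gene *bir-1* differed least, by 3.12 ± 0.14. The kinesin gene *zen-4*, whose product pairs with CYK-4 in centralspindlin and which was picked out after its values were seen, had 393.1 and 356.8 CPM in gonads against 11.11 and 11.10 CPM in worms (5.08 ± 0.16). That is beside 5.24 ± 0.17 for *cyk-4* itself.

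Ring and bridge scaffold genes were higher in gonads in 6 of 7 cases. The septin gene *unc-61* differed most (204.0 and 219.4 CPM in gonads, 4.073 and 4.332 CPM in worms, log2 5.65 ± 0.16, SE). *ccm-3*, which is needed for rachis structure, had the highest level of the list per kb of exon and differed by 2.09 ± 0.18. The third anillin gene, *ani-3*, named after its values were seen, differed by 1.49 ± 0.14 and kept 24.72 and 25.76 CPM in worms. *pes-7*, an IQGAP-family gene, was the one exception, with 12.86 and 12.73 CPM in gonads against 196.6 and 201.0 CPM in worms (-3.96 ± 0.14).

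Actin filament regulators and the relatives of *cyk-1* were mixed. Of 10 actin regulators, 3 were higher in gonads and 6 in worms, near the split of all genes tested (36.4% and 56.6%). The profilin gene *pfn-1*, whose product feeds formins with actin, had 1313 and 1648 CPM in gonads against 243.0 and 367.5 CPM in worms (log2 2.28 ± 0.19, SE). The other profilin gene named here, *pfn-3*, had 1 count in both gonad libraries together and 589 in worms, which is 599 times as many per library total (exact 95% counting interval 107 to 23700). The weakest of the 3 calls in gonads, filamin gene *fln-1* (0.34 ± 0.14, edgeR adjusted p = 0.0252), was lost with unscaled library totals and changed sign with upper-quartile scaling. It was also lost with no count filter (edgeR adjusted p = 0.0519), with limma on the deposited log2 values (adjusted p = 0.0810), and without gonad replicate 2 (edgeR adjusted p = 0.0955), *glp-4* replicate 1 (0.146) or *glp-4* replicate 2 (0.0531). The weakest call in worms, cofilin gene *unc-60* (-0.39 ± 0.14), was lost without gonad replicate 1 (edgeR adjusted p = 0.0672) or *glp-4* replicate 2 (0.165), and with DESeq2 (adjusted p = 0.0627).

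Of 6 other formin genes found, 2 were higher in gonads and 4 in worms, also near the split of all genes (36.4% and 56.6%). *inft-2*, an inverted formin gene, had 261.9 and 292.5 CPM in gonads against 15.51 and 15.97 CPM in worms (log2 4.14 ± 0.15, SE), a larger difference than the 0.71 of *cyk-1*. *fhod-1*, a formin gene known from muscle, had 2.42 and 1.92 CPM in gonads against 92.76 and 106.0 CPM in worms (-5.52 ± 0.19). The second call in gonads, *frl-1* (0.40 ± 0.13, edgeR adjusted p = 0.00766), was lost with unscaled library totals (adjusted p = 0.0942), with upper-quartile scaling (0.765), with limma on the deposited log2 values (0.0989) and without gonad replicate 2 (edgeR adjusted p = 0.120).

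Sarcomeric myosin showed the other side of the comparison, with 7 of 7 chain genes higher in worms and a median log2 fold change of -7.30. The pharyngeal heavy chain gene *myo-1* had 0.427 and 0.402 CPM in gonads against 323.9 and 346.8 CPM in worms (-9.64 ± 0.22, SE). The body wall muscle gene *myo-3* differed least, at 18.03 and 20.09 CPM in gonads against 839.3 and 809.3 CPM in worms (-5.43 ± 0.17). The muscle light chain gene *mlc-2* had the highest level per kb, but is a near-identical copy of *mlc-1* and its single value is uncertain. *nmy-1*, at -4.73 ± 0.17, was short of all 7 of these differences in size.

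**Figure D4:**
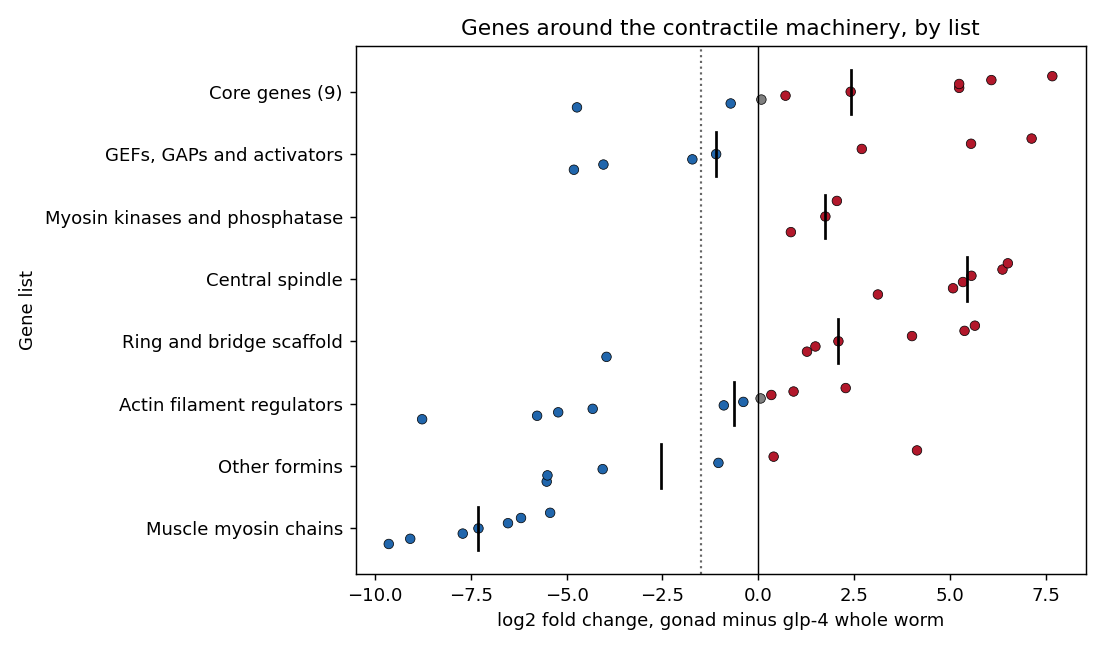
Log2 fold change (gonad minus *glp-4* whole worm) of the 9 core genes and of the tested genes of 7 pathway lists, 1 point per gene; red points are higher in gonads, blue higher in worms and grey did not pass the test, black bars are list medians and the dotted line is the median of all genes tested (-1.50). The 6 central spindle genes lie to the right (median 5.45) and the 7 muscle myosin genes to the left (median -7.30).

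The small differences depend on the scaling of the libraries. Upper-quartile scaling and unscaled totals moved the median of all genes by -0.36 and -0.16 on the log2 scale. Relative to that shift the 9 genes kept their differences to within 0.01. This follows by construction, since a change of scaling moves all genes by nearly the same amount. Taken as they are, *mlc-5* came out at -0.28 with upper-quartile scaling, past the threshold (edgeR adjusted p = 0.0415). *mlc-4* then reached -1.08, past the 2-fold line, and *cyk-1* 0.35.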

How the data were processed

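The members and gene lists were chosen with earlier results of these data known. The authors deposited raw counts per gene, whole numbers under WormBase identifiers, and a table of log2 values. A check on the file showed the latter to be log2(scaled count + 8), each library being scaled to the average total, to within 5e-05. The aligner, counter and build were not given in the sources used here. Per the labels' protocols, ribosomal RNA was removed and cDNA amplified before library preparation; no molecular identifiers are mentioned, so reads need not be independent molecules and counting intervals cover counting error only.

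Of 20182 rows, 1 was left out because it repeated the counts of *pat-10*, and 19513 of the remaining 20181 matched the Ensembl release 115 annotation (WBcel235), used for names, positions and exon lengths. That build may not be the authors'. Counts were fitted with edgeR 4.0.16 in R 4.3.3 (quasi-likelihood, robust, group only, TMM, filterByExpr with minimum count 10 and total 15), p-values adjusted over 13101 genes. Standard errors came from the F statistic. Replicates differed beyond sampling noise (chi-square per degree of freedom 13.9 and 14.0). This does not tell technical from biological spread. Each library was entered in the fit on its own. CPM per kb used the union of annotated exons. From each pathway list the text names the genes with the highest and lowest log2 fold change of at least 2-fold and the one with the highest level; other names were chosen after their values were seen. Alternatives were other scalings, no count filter, DESeq2 1.42.0, limma 3.58.1 on the deposited log2 values, a replicate block, each library left out and, for levels, the longest transcript as length. The listed formin name *inft-1* matched no gene name in the annotation, so no row was read under it. Whether that gene is present under another name was not checked. Also, 1 of the 10 members and 1 pathway list are not reported here.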

Additional observations from a re-analysis of the deposited data

How the results depend on the processing

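Under the 11 alternative fits, *nmy-1*, *nmy-2*, *ani-1*, *ani-2*, *cyk-1*, *cyk-4*, *ect-2* and *mlc-4* kept their direction and stayed past the threshold, and 6 members were higher in gonads in each. *mlc-5* passed the test with upper-quartile scaling (-0.28), which follows from the shift of all genes by -0.36, making 3 members higher in *glp-4* worms instead of 2. It did not pass under the other 10 alternatives, and its sign varied: -0.07 with unscaled totals, -0.08 with limma on the deposited log2 values and -0.02 without *glp-4* replicate 1. With each library left out in turn, *mlc-5* ranged from -0.02 to 0.21, and 6 members were higher in gonads and 2 in worms, as were 21 to 23 and 21 to 22 pathway genes and 4679 to 4740 and 7044 to 7703 of all genes. The summed level of *nmy-1* and *nmy-2* per kb was 310 in gonads and 369 in worms with RLE scaling, 266 and 430 with upper-quartile scaling and 285 and 401 with unscaled totals. The ratio of *ect-2* to *cyk-4* in gonads was 0.289 with the longest transcript as length. The labels share replicate numbers between groups but do not say that these mark a shared batch. Deviations of same-numbered libraries correlated across genes at r = 0.218, and with 2 pairs this does not establish a pairing. With the replicate block 6 members were higher in gonads and 2 in worms, as were 4785 and 7400 of all genes, and the block changed no other call on the members. Depth limits the lowest values most: *ani-2* rests on 70 and 65 counts in worms.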
